A study of Homo sapiens with 4 samples.

Results

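Transcripts of 10 human genes that bind, import or activate fatty acids were followed in 2 liver cancer cell lines with and without PF-429242. This small molecule blocks site-1 protease, the Golgi enzyme whose cut starts the release of the SREBP transcription factors from their membrane anchor. The 10 genes were taken by name from the 32479 genes of the deposited table, and all 10 were found. They are the lipid-binding genes FABP1, FABP5 and DBI, the long-chain acyl-CoA synthetase genes ACSL1, ACSL3, ACSL4 and ACSL5, and the uptake genes CD36, SLC27A2 and SLC27A5. The 4 libraries came from HepG2 cells given 20 uM PF-429242 for 24 h, untreated HepG2 cells at 24 h, PLC/PRF/5 cells given the same dose for 24 h, and untreated PLC/PRF/5 cells at 24 h. HepG2 is a hepatoblastoma-derived line and PLC/PRF/5 a hepatoma line with integrated hepatitis B virus DNA; both are labelled as wild type and were kept in the same serum-containing medium. Each group held 1 library, and the controls are labelled untreated, so an effect of a drug vehicle cannot be told apart from that of PF-429242.

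Fatty acids are poorly soluble and are toxic when free, so cells carry them on binding proteins and trap them by joining them to coenzyme A. Plasma membrane proteins such as CD36 and the SLC27 transporters (FATPs) aid entry. The ACSL enzymes then make long-chain acyl-CoAs, which are held by the acyl-CoA-binding protein encoded by DBI and passed on to oxidation, membrane lipids or triglycerides. In the liver, FABP1 is the abundant cytosolic fatty acid binding protein, and SREBP and PPARA are known regulators of several of these genes.

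The lipid-binding genes, the synthetase genes and SLC27A2 were above 1 FPKM in every library, whereas CD36 and SLC27A5 were below it in all 4. Counted fragments per library, recovered from the deposited FPKM values (fragments per kilobase of gene at a common library total), were 20350701 in treated HepG2, 16722204 in its control, 16982560 in treated PLC/PRF/5 and 21387301 in its control. Between 11428 and 12441 genes reached 1 FPKM in a library. Mitochondrial genes took 27.6% of fragments in treated HepG2 and 16.6% in its control, and 28.2% in treated PLC/PRF/5 and 21.3% in its control, which lowers the FPKM of nuclear genes in the treated libraries. The median log2 ratio of (FPKM + 1), PF-429242 over control, was -0.17 over 12347 genes in HepG2 and -0.13 over 13144 genes in PLC/PRF/5. Ratios with all totals taken over nuclear genes alone are therefore given where this matters. All 8 hepatocyte markers were present in every library, with summed levels of 5673 and 6503 FPKM in treated and control HepG2 and 2882 and 2604 FPKM in treated and control PLC/PRF/5. The adipocyte list summed to between 0.464 and 1.76 FPKM, the macrophage and blood cell list to between 0.187 and 0.749 FPKM, the endothelial list to between 0.869 and 1.37 FPKM, the enterocyte list to between 0.247 and 1.18 FPKM and the fibroblast and stellate cell list to between 2.07 and 6.43 FPKM, most of it ACTA2.

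The promoters of the 3 genes with the lowest treated-over-control ratios in HepG2 are shown first, FABP1, DBI and ACSL3, because the treatment comparison turns on them. All 3 genes lie on chromosome 2. The bases are the 250 before the RefSeq start of each gene, in its first window. They are on GRCh38.p14, 5′ to 3′ on the gene's strand. Matches to a CCAAT box or a GC box (GGGCGG), on either strand, are in capitals.
FABP1, chr2:88128063-88128312, minus strand: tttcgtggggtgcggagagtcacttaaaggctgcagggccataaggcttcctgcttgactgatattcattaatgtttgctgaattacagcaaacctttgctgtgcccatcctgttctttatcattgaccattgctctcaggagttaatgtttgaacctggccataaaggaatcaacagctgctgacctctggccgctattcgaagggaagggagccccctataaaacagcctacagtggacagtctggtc
DBI, chr2:119366727-119366976, plus strand: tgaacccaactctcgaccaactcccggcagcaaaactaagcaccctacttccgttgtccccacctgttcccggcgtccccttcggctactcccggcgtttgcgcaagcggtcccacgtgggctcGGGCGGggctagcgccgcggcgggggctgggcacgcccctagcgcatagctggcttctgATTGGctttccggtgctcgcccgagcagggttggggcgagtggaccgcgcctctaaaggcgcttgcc
ACSL3, chr2:222860786-222861035, plus strand: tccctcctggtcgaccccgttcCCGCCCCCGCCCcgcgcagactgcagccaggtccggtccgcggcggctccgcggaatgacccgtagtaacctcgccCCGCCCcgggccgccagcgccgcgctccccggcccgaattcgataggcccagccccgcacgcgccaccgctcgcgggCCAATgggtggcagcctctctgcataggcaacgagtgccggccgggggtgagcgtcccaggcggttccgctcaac
The DBI window held a CCAAT box on the minus strand starting 67 bases before the RefSeq start and a GC box 126 bases before it. ACSL3 held a CCAAT box starting 75 bases before its RefSeq start, and 3 GC boxes. The RefSeq starts of all 3 genes lie inside the gene positions given below, which are from GENCODE. FABP1 held neither. Across the first windows of 27305 genes in the RefSeq table, 35.7% held CCAAT and 44.6% held GGGCGG within the same 300 bases. The letters TCACNCCAC, a sterol element, were in 1.15% of first windows and in none of these 3, and the consensus direct repeat 1, bound by PPARA with its partner RXR, was in 0.022% of first windows and in none of the windows of the 9 matched genes. Of those 9 genes, ACSL1 had the sterol letters in an alternative window, 1 of its 5. FABP5 was not matched. A match of letters is a description of the window and not a bound site. The sterol element and direct repeat 1 were searched for as fixed letters only, and inexact forms were not searched. Few first windows hold these letters, 0.022% for direct repeat 1. The lack of a match therefore does not show that a promoter, that of FABP1 included, lacks such an element.

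**Figure D1:**
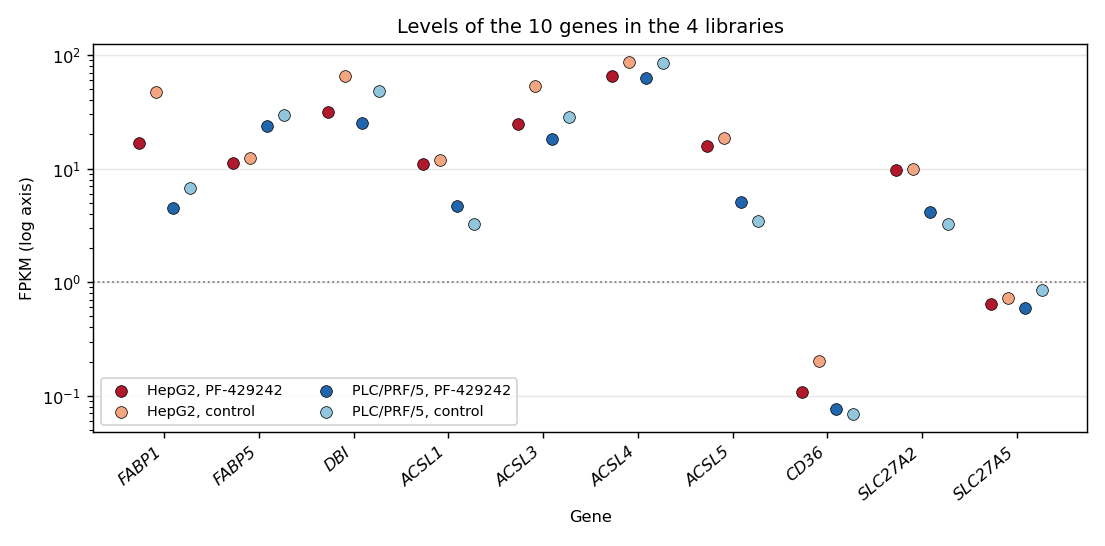
FPKM (log axis) of each of the 10 genes in the 4 libraries, 1 point a library, with a dotted line at 1 FPKM. ACSL4 has the highest FPKM in every library, and CD36 and SLC27A5 lie below 1 FPKM throughout.

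By FPKM, ACSL4 had the highest level of the 10 genes in all 4 libraries and DBI the next. This order rests on the gene length used by the authors. For FABP1 that length was 2470 bases, against 555 bases for its principal transcript, and for DBI it was 2509 against 637 bases. With principal transcript lengths, an alternative chosen after the data were seen, DBI came first in every library, at 125 and 258 FPKM in treated and control HepG2 and 99.1 and 191 FPKM in treated and control PLC/PRF/5. FABP1 was then at 75.2 and 210 FPKM in treated and control HepG2. Ratios between libraries do not depend on the length, and levels below are on the deposited scale.

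FABP1, the liver fatty acid binding protein gene (ENSG00000163586, chromosome 2, 88122982 to 88128116, GRCh38), was the member furthest below its control in HepG2. It was at 16.9 FPKM in treated HepG2 and 47.3 FPKM in the control, from 849 and 1953 fragments. That is a ratio of 0.357, with a 95% counting interval of 0.329 to 0.387 (exact Clopper-Pearson on the fragments of a pair of libraries; counting error only). In PLC/PRF/5 it was at 4.48 FPKM with PF-429242 and 6.78 FPKM without, a ratio of 0.661 (0.551 to 0.791). With totals over nuclear genes the ratios were 0.411 in HepG2 and 0.725 in PLC/PRF/5. The treated library was the lower in both lines, and both HepG2 libraries stood above both PLC/PRF/5 libraries. Among 9835 genes with at least 100 fragments in either HepG2 library, 33 had a lower log2 ratio than FABP1. In RNA from whole cultures, fewer cells expressing a gene and less RNA per cell cannot be told apart.

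DBI (ENSG00000155368, chromosome 2, 119366921 to 119372560), which encodes the acyl-CoA-binding protein and is a known SREBP target, was at 31.6 FPKM in treated HepG2 and 65.5 FPKM in its control. It was at 25.2 FPKM in treated PLC/PRF/5 and 48.5 FPKM in its control. The ratios were 0.483 (0.454 to 0.514) in HepG2 and 0.518 (0.482 to 0.557) in PLC/PRF/5. Both treated libraries lay below both controls, and the ratio was of nearly the same size in the lines: the HepG2 ratio divided by that of PLC/PRF/5 was 0.932 (counting interval 0.848 to 1.02). In PLC/PRF/5, 68 of 10559 genes with at least 100 fragments had a lower log2 ratio than DBI on the deposited scale. With totals over nuclear genes the ratios of treated to control were 0.556 in HepG2 and 0.568 in PLC/PRF/5.

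FABP5, the epidermal fatty acid binding protein gene (ENSG00000164687, chromosome 8, 81280363 to 81284777), had the reverse line pattern of FABP1. It was at 11.3 FPKM in treated HepG2 and 12.3 FPKM in its control, and at 23.8 FPKM in treated PLC/PRF/5 and 29.5 FPKM in its control. The HepG2 pair differed by less than counting error (ratio 0.914, 0.795 to 1.05), and the PLC/PRF/5 ratio was 0.806 (0.735 to 0.883). With totals over nuclear genes the ratios were 1.05 and 0.883, so the HepG2 direction turns with the scaling. FABP5 is also uncertain because it has 13 annotated pseudogenes; the 4 of them in the table held between 12 and 21 fragments a library, or 1.75% to 3.43% of those of FABP5. Reads that match FABP5 and a pseudogene equally may have been left out or split.

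The ratio of FABP1 to FABP5 differed widely between the lines and with treatment in HepG2. On the FPKM scale it was 1.50 in treated HepG2 and 3.83 in its control, against 0.189 in treated PLC/PRF/5 and 0.230 in its control. HepG2 held more FABP1 than FABP5 transcript, and PLC/PRF/5 the reverse, also with principal transcript lengths.

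**Figure D2:**
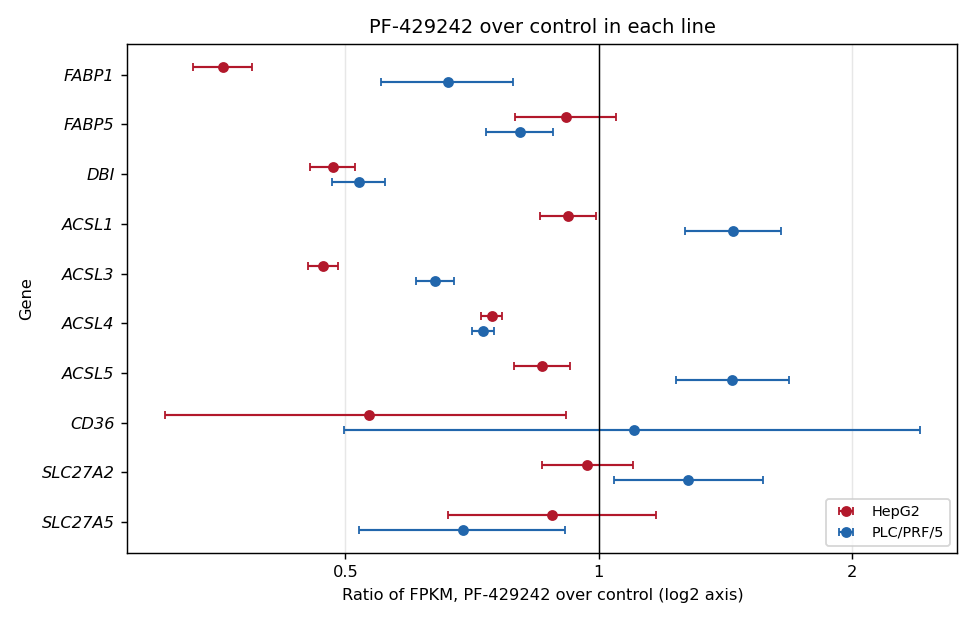
Ratio of FPKM, PF-429242 over control (log2 axis), for each gene in HepG2 and in PLC/PRF/5; bars are 95% counting intervals from recovered fragments, with 1 library a group. FABP1, FABP5, DBI, ACSL3, ACSL4 and SLC27A5 lie below 1 in both lines. ACSL1, ACSL5, SLC27A2 and CD36 lie above 1 in PLC/PRF/5 but not in HepG2. The intervals of FABP5, SLC27A2 and SLC27A5 in HepG2 and of CD36 in PLC/PRF/5 hold 1.

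The synthetase genes made up a pair with lower values in treated cells of both lines, ACSL3 and ACSL4, and a pair that was higher in treated PLC/PRF/5 but not in treated HepG2, ACSL1 and ACSL5. ACSL3 (ENSG00000123983, chromosome 2, 222860934 to 222944639) encodes the enzyme of the endoplasmic reticulum and lipid droplets. It was at 24.9 FPKM in treated HepG2 and 53.0 FPKM in its control, a ratio of 0.471 (0.452 to 0.490). In treated PLC/PRF/5 it was at 18.2 FPKM and in its control at 28.4 FPKM, a ratio of 0.639 (0.607 to 0.672). On the deposited scale both treated values were below both controls, and the HepG2 ratio divided by that of PLC/PRF/5 was 0.737 (counting interval 0.690 to 0.786). The order of treated HepG2 and control PLC/PRF/5 rests on the scaling. Their median-of-ratios size factors, by which values are divided, were 0.915 and 1.07. With totals over nuclear genes the ratios of treated to control were 0.542 in HepG2 and 0.700 in PLC/PRF/5.

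ACSL4 (ENSG00000068366, chromosome X, 109624244 to 109733403) encodes the synthetase that prefers arachidonic and other polyunsaturated acids. It stood at 65.4 FPKM in treated HepG2 and 87.6 FPKM in its control. In PLC/PRF/5 it stood at 62.6 FPKM with PF-429242 and 85.9 FPKM without. Levels were near-equal between the lines, and so were the ratios, at 0.746 (0.725 to 0.769) in HepG2 and 0.729 (0.708 to 0.751) in PLC/PRF/5. With totals over nuclear genes they were 0.859 and 0.799.

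ACSL1 (ENSG00000151726, chromosome 4, 184755595 to 184826818), the major synthetase of liver and fat and a known PPARA target, was at 11.0 FPKM in treated HepG2 and 12.0 FPKM in its control. It was at 4.68 FPKM in treated PLC/PRF/5 and 3.24 FPKM in its control, a ratio of 1.44 (1.27 to 1.65). ACSL5 (ENSG00000197142, chromosome 10, 112374018 to 112428380), found on mitochondria and endoplasmic reticulum and an SREBP-1c target in rat liver, was at 15.9 FPKM in treated HepG2 and 18.5 FPKM in its control. In PLC/PRF/5 it was at 5.03 FPKM with PF-429242 and 3.49 FPKM without, a ratio of 1.44 (1.24 to 1.68). The treated library was thus the higher of the PLC/PRF/5 pair for both genes. In HepG2 the ratios were 0.920 (0.852 to 0.994) for ACSL1 and 0.857 (0.794 to 0.926) for ACSL5 on the deposited scale, and 1.06 and 0.987 with totals over nuclear genes. ACSL5 shares 144 exon bases (3.40% of its exons) with ZDHHC6 on the opposite strand, which was at 8.36 to 11.4 FPKM, and 224 with the antisense gene AL157786.1. The sources used here do not say whether counting used strand.

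SLC27A2 (ENSG00000140284, chromosome 15, 50182196 to 50236395), which encodes the very-long-chain synthetase and transporter FATP2, followed the ACSL1 and ACSL5 pattern with a smaller size. It was at 9.68 FPKM in treated HepG2 and 9.98 FPKM in its control, a ratio of 0.970 (0.856 to 1.10). In treated PLC/PRF/5 it was at 4.15 FPKM and in its control at 3.25 FPKM, a ratio of 1.28 (1.04 to 1.57). Only the PLC/PRF/5 pair differed beyond counting error. Its exons share 557 bases (19.9%) with ATP8B4 on the opposite strand, which was at 0.125 FPKM or less. Some hepatocyte markers were also higher in treated PLC/PRF/5: ALB was at 1148 FPKM in the treated library and 624 FPKM in the control, APOA1 at 106 and 71.6 FPKM and TTR at 11.6 and 6.83 FPKM, while FGB went the other way at 347 and 648 FPKM. Ratios of the other 4 markers were close to 1 in PLC/PRF/5, at 1.05 for APOB, 1.07 for TF, 0.973 for HNF4A and 0.930 for SERPINA1. Of the 8 markers, 3 had a log2 ratio below 0 in PLC/PRF/5, where 70.9% of all genes did, and all 8 in HepG2, where 82.4% did. Their part in the result was not tested.

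The remaining uptake genes were below 1 FPKM on the deposited scale, which also rests on gene length. That length was 10880 bases for CD36 and 8025 for SLC27A5, against 2094 and 2361 for principal transcripts (the median for CD36). With principal transcript lengths SLC27A5 was at 2.19 and 2.48 FPKM in treated and control HepG2. It was at 2.00 and 2.89 FPKM in treated and control PLC/PRF/5. CD36 then passed 1 FPKM only in control HepG2, at 1.06 FPKM. CD36, the plasma membrane fatty acid translocase (ENSG00000135218, chromosome 7, 80369575 to 80679277), was at 0.108 FPKM in treated HepG2 and 0.203 FPKM in its control, from 24 and 37 fragments. It was at 0.0758 FPKM in treated PLC/PRF/5 and 0.0688 FPKM in its control, from 14 and 16 fragments. The ratios were 0.533 (0.305 to 0.915) in HepG2 and 1.10 (0.498 to 2.41) in PLC/PRF/5, the widest intervals of the 10 genes. SLC27A5, the liver bile acid-CoA ligase FATP5 (ENSG00000083807, chromosome 19, 58479512 to 58512413), was at 0.643 and 0.730 FPKM in treated and control HepG2 and at 0.587 and 0.851 FPKM in treated and control PLC/PRF/5, with ratios of 0.880 (0.662 to 1.17) and 0.690 (0.519 to 0.912). Its exons share 1131 bases (14.1%) with ZNF446 on the opposite strand, itself at 0.529 to 0.777 FPKM, so its fragments cannot be assigned firmly. On the deposited scale these 2 genes did not reach 1 FPKM in any library and so entered neither the 2-fold counts nor the fit.

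**Figure D3:**
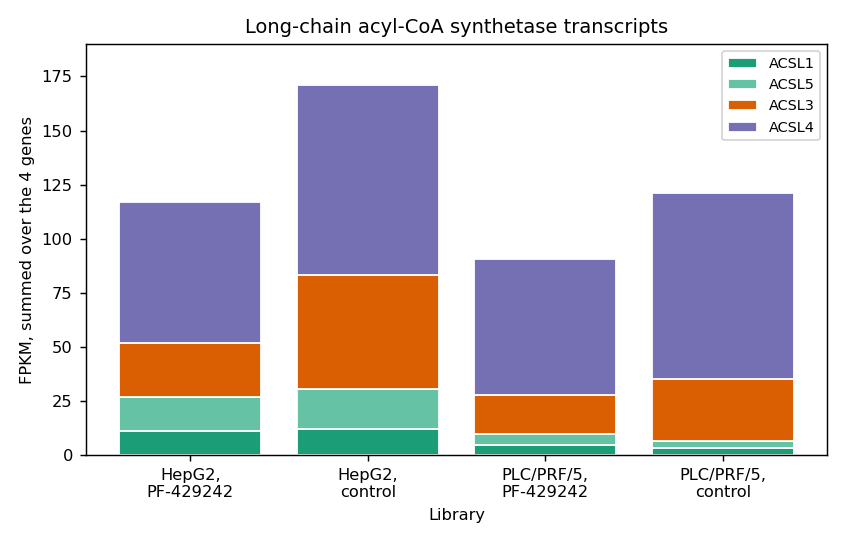
FPKM of ACSL1, ACSL5, ACSL3 and ACSL4 stacked for each library, with 1 library a group. The summed height is 117 FPKM in treated HepG2 and 171 FPKM in its control, and 90.5 FPKM in treated PLC/PRF/5 and 121 FPKM in its control.

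Summed over the 4 ACSL genes, FPKM was 117 in treated HepG2 and 171 in its control, and 90.5 in treated PLC/PRF/5 and 121 in its control. The ratios were 0.685 and 0.748. Within the sum, ACSL3 made up 21.3% in treated HepG2 and 31.0% in its control, and 20.1% in treated PLC/PRF/5 and 23.5% in its control. ACSL4 made up 55.8% and 51.2% in treated and control HepG2, and 69.2% and 70.9% in treated and control PLC/PRF/5. ACSL1 held 9.40% and 6.99% in treated and control HepG2, and 5.17% and 2.67% in treated and control PLC/PRF/5. ACSL5 held 13.6% and 10.8% in treated and control HepG2, and 5.56% and 2.88% in treated and control PLC/PRF/5. With principal transcript lengths ACSL4 remained the largest part in every library, at between 45.0% and 64.9%.

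By count, 3 of the 8 genes with at least 1 FPKM were lower by 2-fold or more in treated HepG2 on the log2(FPKM + 1) scale, where 2.14% of 12347 genes were. They were FABP1 at -1.43, ACSL3 at -1.06 and DBI at -1.03. None of the 8 was higher by that much, where 1.0% of genes were. In treated PLC/PRF/5 none of the 8 was past 2-fold in either direction, where 3.29% of 13144 genes were, and DBI came nearest at -0.92. All 8 had a log2 ratio below 0 in HepG2, where 82.4% of genes had one, and 5 of 8 in PLC/PRF/5, against 70.9%. FABP1, FABP5, DBI, ACSL3 and ACSL4 were those below 0 in both lines (5 of 8, where 62.5% of 11062 genes were), and ACSL1, ACSL5 and SLC27A2 those below 0 in HepG2 and above 0 in PLC/PRF/5 (3 of 8, against 21.3%). Shares of genes below 0 are moved by the scaling. The medians of the 8 were -0.31 in HepG2 and -0.37 in PLC/PRF/5, beside -0.17 and -0.13 over all genes. ACSL3 and DBI rest on the scaling: with totals over nuclear genes their HepG2 values were -0.86 and -0.83, and FABP1 alone, at -1.25, was past 2-fold.

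The size of the ratio differed between the lines for some genes by more than counting error. The HepG2 ratio divided by the PLC/PRF/5 ratio was 0.540 (0.445 to 0.656) for FABP1, 0.594 (0.502 to 0.704) for ACSL5, 0.637 (0.549 to 0.740) for ACSL1, 0.737 for ACSL3 as above and 0.758 (0.600 to 0.958) for SLC27A2. On the deposited scale these intervals leave out 1. Those of the other 5 genes, DBI, ACSL4, FABP5, CD36 and SLC27A5, hold 1. For genes near the limit this split can turn with the scaling. With totals over nuclear genes, the HepG2 and PLC/PRF/5 ratios were 1.12 and 1.40 for SLC27A2. They were 0.859 and 0.799 for ACSL4 and 1.05 and 0.883 for FABP5. Intervals for the divided ratios were not computed on that scale. With 1 library a group, the difference between the lines was not tested over replicates. These intervals were computed for the members only, so how common such a difference is among all genes is not known.

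Both lines together gave no call for treatment. A linear model was fitted (limma with a trended variance on log2(FPKM + 1), cell line as a term). It treats the lines as its replicates and leaves 1 residual degree of freedom. Its p-values set the mean response against the difference between the lines, after each gene's variance is drawn towards a trend over all genes tested. They do not measure a spread of separate cultures. At an adjusted p under 0.05, 0% of 12838 genes were called, against 2488 genes (19.4%) at an unadjusted p under 0.05. limma-voom on the recovered fragments also called none. Of the 8 members tested, 4 had an unadjusted p under 0.05: FABP1, DBI, ACSL3 and ACSL4. The fitted log2 effect was -0.97 ± 0.072 (SE) for DBI, with an adjusted p of 0.193. It was -0.84 ± 0.13 for ACSL3 and -0.43 ± 0.070 for ACSL4, both with an adjusted p of 0.193 from limma. FABP1, whose ratios differed more between the lines, was at -0.97 ± 0.24 (limma adjusted p = 0.197). FABP5 was at -0.21 ± 0.083 (limma adjusted p = 0.280), and ACSL1, ACSL5 and SLC27A2, with fitted effects between 0.11 and 0.16, had limma adjusted p-values of 0.586, 0.735 and 0.577.

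**Figure D4:**
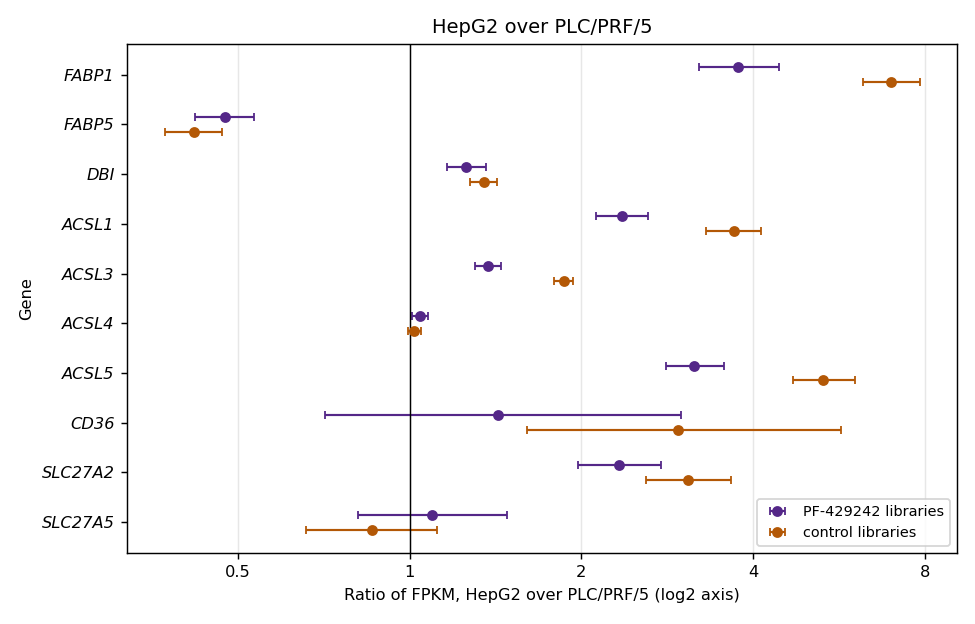
Ratio of FPKM, HepG2 over PLC/PRF/5 (log2 axis), for each gene in the PF-429242 libraries and in the control libraries; bars are 95% counting intervals, with 1 library a group. FABP1, ACSL5, ACSL1 and SLC27A2 lie above 2 in both pairs, FABP5 below 0.5 in both, and ACSL4 near 1.

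Most of the 8 genes also differed in level between the lines. FABP1, ACSL5, ACSL1 and SLC27A2 had higher levels in HepG2 than in PLC/PRF/5, at ratios of 3.77, 3.16, 2.35 and 2.33 in the treated libraries and 6.98, 5.31, 3.70 and 3.07 in the controls. FABP5 was lower in HepG2, at ratios of 0.475 in the treated libraries and 0.419 in the controls. ACSL3 was at 1.37 and 1.86 and DBI at 1.26 and 1.35 in treated and control libraries, and ACSL4 at 1.04 and 1.02. FABP1, ACSL5, ACSL1, SLC27A2 and FABP5, 5 of 8 genes, were past 2-fold on the log2(FPKM + 1) scale in each pair, where 17.8% of 13285 genes were among treated libraries and 23.1% of 13861 among controls. The 4 higher in HepG2 stand beside 5.87% of all genes among treated libraries and 10.0% among controls, and the 1 lower beside 12.0% and 13.1%. Among treated libraries FABP5, at -1.01 on that scale, was near the threshold and inside 2-fold under median-of-ratios scaling (-0.91), quantile normalization (-0.97) and the TPM scale (-0.83). With a pseudocount of 5 it was at -0.82, ACSL1 at 0.73 and SLC27A2 at 0.68. The pairs share their libraries with the treatment comparison, and each line is a single line.

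In the same limma model, the cell line term was called for 7 of the 8 genes, where 54.9% of 12838 genes were called. Of the members 6 were higher in HepG2 and 1 lower, where 23.1% and 31.8% of all genes were. FABP1 was higher in HepG2 by 2.17 ± 0.24 (log2, SE; limma adjusted p = 0.00566), ACSL5 by 1.80 ± 0.18 (limma adjusted p = 0.00469), ACSL1 by 1.35 ± 0.16 (limma adjusted p = 0.00605) and SLC27A2 by 1.21 ± 0.12 (limma adjusted p = 0.00457). ACSL3 was higher by 0.66 ± 0.13 (limma adjusted p = 0.0181) and DBI by 0.37 ± 0.072 (limma adjusted p = 0.0178). FABP5 was at -1.10 ± 0.083 (limma adjusted p = 0.00337). ACSL4 was at 0.045 ± 0.070, with a limma adjusted p of 0.613. The calls of DBI and ACSL3 rest on the treatment term: without it their limma adjusted p-values were 0.488 and 0.181, while those of the other 5 genes stayed under 0.05 in all alternatives. ACSL4 was called on the TPM scale alone (limma adjusted p = 0.0427). For the cell line term the treated and untreated libraries act as the replicates. Its p-values set the line difference against its change with treatment, and do not measure a spread of separate cultures. With calls this frequent over all genes, the sizes carry the comparison rather than the count.

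**Figure D5:**
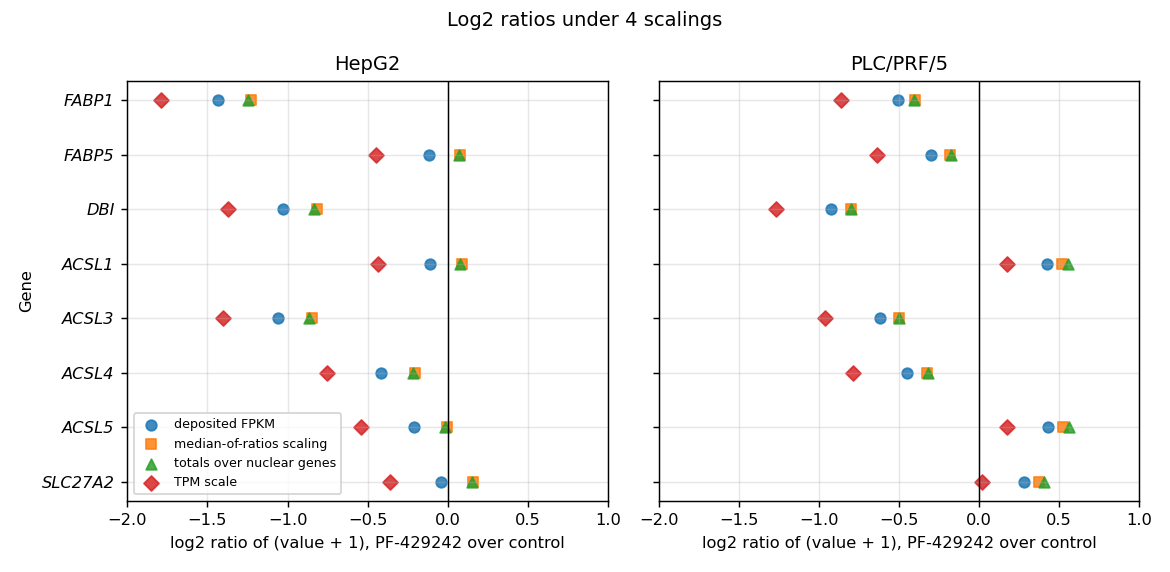
Log2 ratio of (value + 1), PF-429242 over control, for 8 of the genes (all but CD36 and SLC27A5), in HepG2 and in PLC/PRF/5, under the deposited FPKM and 3 other scalings. Under all 4, FABP1, DBI, ACSL3 and ACSL4 stay below 0 in both lines and ACSL1, ACSL5 and SLC27A2 above 0 in PLC/PRF/5, while FABP5, ACSL1 and SLC27A2 take either sign in HepG2.

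In the wider pathway, ACSS2 and ACOT1 were the genes past 2-fold, both lower in treated HepG2. Over all genes, 2.14% were lower by 2-fold or more in HepG2, and 3.29% were past 2-fold in either direction in PLC/PRF/5. Of the other acyl-CoA synthetases, 1 of 10 with at least 1 FPKM in HepG2 was lower by 2-fold or more, the acetyl-CoA synthetase gene ACSS2, a known SREBP target. ACSS2 was at 3.31 FPKM in treated HepG2 and 13.5 FPKM in its control, and at 3.51 FPKM in treated PLC/PRF/5 and 6.49 FPKM in its control. None of 7 in PLC/PRF/5 was past 2-fold. The medium-chain synthetase gene ACSM3 came nearest, at 5.68 FPKM in treated PLC/PRF/5 and 2.85 FPKM in its control (log2 ratio 0.80), and the mitochondrial acetyl-CoA synthetase gene ACSS1 was at 4.42 and 2.45 FPKM. In HepG2 these were at 9.90 and 11.7 FPKM for ACSM3 and 8.08 and 11.6 FPKM for ACSS1, treated and control. The median log2 ratio of these synthetase genes was -0.23 in HepG2 and 0.093 in PLC/PRF/5.

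Among 6 measured acyl-CoA thioesterases in HepG2, 1 was past 2-fold, the cytosolic ACOT1 at 1.05 FPKM in treated cells and 3.12 FPKM in the control. The log2 ratio of ACOT1, -1.01, was only just past the threshold. ACOT1 is near-identical to ACOT2, and reads may be shared. The thioesterase medians were -0.32 in HepG2 and -0.22 in PLC/PRF/5. Neither the 7 other binding proteins nor the 2 other uptake genes measured in HepG2 held a gene past 2-fold, and neither list did in PLC/PRF/5. ACBD3, a Golgi protein with an acyl-CoA-binding domain, was nearest, at 11.1 FPKM in treated HepG2 and 18.5 FPKM in its control. Median log2 ratios were -0.18 in HepG2 and -0.16 in PLC/PRF/5 for the binding proteins, and -0.12 in each line for the uptake genes. FABP4 and PMP2 were on the list but not found among the genes with deposited values, so they were not analysed here. In the limma fit 0% of 12838 genes were called for treatment, so the lack of a call in these 4 lists says nothing about them.

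As a list, textbook SREBP target genes had lower medians than the members, though not gene by gene: ELOVL6, a fatty acid elongase gene, was at -0.84 in HepG2, above FABP1, ACSL3 and DBI. In HepG2, 12 of 13 were past 2-fold lower (median log2 ratio -2.29), where 2.14% of all genes were. In PLC/PRF/5 10 of 14 were (median -1.36), where 3.29% of all genes were past 2-fold in either direction. The desaturase gene SCD was at 69.4 FPKM in treated HepG2 and 419 FPKM in its control. Of the PPARA target genes, none of 8 in HepG2 and none of 10 in PLC/PRF/5 was past 2-fold on the log2(FPKM + 1) scale. Over all genes the shares were 2.14% lower and 1.0% higher in HepG2, and 3.29% in either direction in PLC/PRF/5. With shares this small, the lack of such a gene in a short list says little. Their medians were -0.21 and -0.28. The lipid droplet coat gene PLIN2 was higher in both treated lines, at 62.3 FPKM in treated HepG2 and 41.3 FPKM in its control. In PLC/PRF/5 it was at 29.5 FPKM in treated cells and 14.7 FPKM in the control, a ratio of 2.01. With 1 FPKM added to each value, its log2 ratio there was 0.96, just inside 2-fold.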

How the data were processed

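RNA was measured in 4 libraries, 1 for each line and treatment. The deposited values are FPKM per Ensembl gene. TopHat2 and the GRCh38 build are named per the submitters' processing notes. Counting program, annotation release, strand setting and TopHat2 version were not given in the sources used here.

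Of 32479 identifiers, 32354 were in GENCODE 29, which gave symbols, positions and exon lengths. Dividing FPKM by the value of 1 fragment gave whole fragments, within 0.001, for 24452 genes (75.3%). Ratios between libraries solved 7619 more, and 408 were left. Intervals of ratios are exact Clopper-Pearson at 95%; those of a ratio between the lines' ratios are normal on the log scale. Both cover counting error only, since PCR copies are not told apart. With 3 fragments as the floor, a gene of 1 kb is limited to between 0.140 and 0.179 FPKM.

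Log2 ratios are of (FPKM + 1), which understates changes of low genes, for genes that reached 1 FPKM in either library; there is no p-value for a pair of libraries. The fit over all libraries used limma 3.58.1 in R 4.3.3 (eBayes with trend) on the 12838 genes that reached 1 FPKM in 2 libraries or more, with Benjamini-Hochberg adjustment over all of them. It was tested on simulated data. Alternatives were pseudocounts of 0.1 and 5, other filters, folds of 1.5 and 4, 4 scalings, limma settings, limma-voom and an adjusted p of 0.10; principal transcript lengths were added later. The 10 genes and all lists were chosen with earlier results of these data known. Named genes were all 10, and of each other list the up to 4 with the largest mean absolute log2 ratio and the highest in FPKM. ELOVL6 and the hepatocyte markers APOB, TF, HNF4A and SERPINA1 were named outside this rule. Promoters are from RefSeq, matched by symbol for 9 of the 10 genes.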

Additional observations from a re-analysis of the deposited data

Results flagged for a closer look

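Some genes had log2 ratios of opposite sign in the lines, below 0 in treated HepG2 and above 0 in treated PLC/PRF/5. The difference between the lines was not tested, since each line has 1 library a group. Of 11062 genes with at least 1 FPKM in both lines, 21.3% had this pattern. Among the 8 members with at least 1 FPKM they were ACSL1, at -0.11 in HepG2 and 0.42 in PLC/PRF/5, ACSL5, at -0.21 in HepG2 and 0.43 in PLC/PRF/5, and SLC27A2, at -0.040 in HepG2 and 0.28 in PLC/PRF/5. With totals over nuclear genes the HepG2 values were 0.079, -0.018 and 0.15 and those of PLC/PRF/5 were 0.55, 0.56 and 0.40, so ACSL1 and SLC27A2 no longer had opposite signs.

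Among the wider lists, ACSS1 was at -0.47 in HepG2 and 0.65 in PLC/PRF/5. The medium-chain synthetase gene ACSM3 was at -0.22 in HepG2 and 0.80 in PLC/PRF/5. ACSL5, ACSS1 and ACSM3 kept opposite signs under all 5 scalings, though ACSL5 lay near 0 in HepG2 under some. ACSF2, a mitochondrial acyl-CoA synthetase gene, was at -0.49 in HepG2 and 0.13 in PLC/PRF/5. The transaminase gene GOT2, also known as a fatty acid binding protein of the plasma membrane, was at -0.16 in HepG2 and 0.044 in PLC/PRF/5. ACOT2, a mitochondrial thioesterase gene, was at -0.22 in HepG2 and 0.091 in PLC/PRF/5. EHHADH, of peroxisomal oxidation, was at -0.49 in HepG2 and 0.067 in PLC/PRF/5. GOT2 had the same sign in both lines under each of the 4 other scalings, for example 0.040 in HepG2 and 0.17 in PLC/PRF/5 with totals over nuclear genes. ACSF2, ACOT2 and EHHADH were below 0 in both lines on the TPM scale, at -0.14, -0.22 and -0.20 in PLC/PRF/5.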

How the results depend on the processing

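Members past 2-fold in treated HepG2 numbered 3, and 1 (FABP1) with a pseudocount of 5, median-of-ratios scaling, quantile normalization or totals over nuclear genes, and 0 at 4-fold. In PLC/PRF/5 the count of 0 became 1 (DBI) on the TPM scale and 2 (DBI and ACSL3) at 1.5-fold. Between the controls, 5 became 3 with a pseudocount of 5 and 2 at 4-fold. On the TPM scale the all-gene median log2 ratio was -0.48 in HepG2 and -0.43 in PLC/PRF/5, and there the fit called 4987 genes for treatment, FABP1, FABP5, DBI, ACSL3 and ACSL4 among them, against 0 otherwise and 0 with no replicate block (cell line term left out). On that scale the fitted treatment effects of ACSL1, ACSL5 and SLC27A2 turned to -0.13, -0.18 and -0.17. The cell line term was called for 7049 genes, and for 4352 when at least 5 FPKM was required, which tests fewer genes. ACSL4's line effect turned to -0.0023 with totals over nuclear genes. The fit as reported pairs the libraries by cell line, its replicate block; the labels give no other replicate numbers. Other settings kept the counts within 1.5 times. Depth limits CD36 and SLC27A5, at 14 to 146 fragments a library.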
